A study of Mus musculus with 6 samples.

Results

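The genes described here build, load and control the major histocompatibility complex (MHC) of the mouse, which shows peptides to T cells. They were chosen by symbol: every gene whose name starts with H2-, plus B2m, Tap1, Tap2, Tapbp, Psmb8, Psmb9, Psmb10, Nlrc5, Erap1, Ciita, Cd74 and Cd1d1. This gave 50 genes of the 21671 named genes in the count table. By role, 26 are class I genes (B2m included), 10 are class II genes (Cd74 included), 7 process or load peptides, 2 are transactivators and 1 is Cd1d1. Of the remaining genes, 3 are annotated as pseudogenes by RefSeq (H2-K2, H2-T10 and H2-Bl). The last, H2-Ke6, encodes an enzyme of steroid and fatty acid metabolism and no MHC molecule.

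Expression was measured by ribosome-depleted RNA sequencing in subcutaneous tumours of CD1 nude ho mice. The tumours grew from injected transformed hepatoblasts that carry TtRMPVIR shST18, a vector from which doxycycline induces a short hairpin RNA against St18. The tested libraries were 3 with the treatment label 4h Doxycycline and the genotype label ST18 knockdown. These libraries are from tumour tissue taken 4 h after an oral gavage with 300 µl of doxycycline at 200 mg/ml. They were compared with 3 libraries labelled untreated and wild type; per the treatment protocol, which is the same for every sample, the injected cells carry the vector. Drug, gavage and hairpin therefore differ together, and the labels name neither age nor sex. No source says whether the libraries are from different animals, so p-values may measure technical spread only. Nude mice lack a thymus and most T cells but keep B cells, natural killer cells and myeloid cells. A tumour library mixes RNA of graft and host, so fewer cells of a type and less RNA per cell cannot be told apart.

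Libraries held 12090309 to 16169043 counts. St18, the target of the hairpin, had 34, 12 and 61 counts in doxycycline replicates 1, 2 and 3, against 12, 23 and 19 in untreated replicates 1, 2 and 3. Doxycycline replicate 2 was below all untreated libraries at 0.824 CPM and replicates 1 and 3 were above them, and St18 was not called (log2 fold change 1.03, edgeR adjusted p = 0.298). Doxycycline replicate 2 stood apart from the others of its group, with a chi-square per degree of freedom of 31.0 and 31.7 against replicates 1 and 3, which differed from each other by 13.1. Untreated libraries differed from each other by 5.40 to 8.69. Of the hepatoblast, hepatocyte and biliary markers, 10 of 14 passed the filter on low counts, and none was past the threshold (median log2 fold change 0.30). Of 14 skeletal muscle markers 9 were higher, against 2.84% of all tested genes. Their summed level was 437, 683 and 104 CPM in doxycycline replicates 1, 2 and 3 (CPM, counts scaled to a common library size). In untreated replicates 1, 2 and 3 it was 40.9, 58.1 and 28.7 CPM.

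Class I molecules are made by nearly all nucleated cells. They pair a heavy chain with beta-2-microglobulin and display peptides cut in the cytosol by the proteasome, pumped into the endoplasmic reticulum by the transporter Tap1-Tap2 and loaded with the help of tapasin. Class II molecules are made mainly by dendritic cells, B cells and macrophages. Their chains assemble on the invariant chain, Cd74, and receive peptides in endosomes with the help of the H2-DM exchange factor. Both promoter types carry a module of X and Y boxes, on which Ciita acts for class II genes and Nlrc5 for class I genes, while class I promoters also carry NF-kB and interferon response elements.

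The promoter stretches below are shown because they let the class II and class I genes described here be compared at the module that the transactivators use. They are read 5′ to 3′ from the RefSeq promoter table (build GRCm38.p6), which held 37 of the 50 genes, and capitals mark motif matches on either strand. The 3 class II stretches lie at chr17:34287857-34287964 (H2-Aa, minus strand), chr17:34305770-34305846 (H2-Eb1, plus strand) and chr17:34153091-34153144 (H2-DMb1, plus strand). The 3 class I stretches lie at chr17:34000349-34000468 (H2-K1, minus strand), chr17:35262913-35263055 (H2-D1, plus strand) and chr2:122147538-122147648 (B2m, plus strand).
H2-Aa: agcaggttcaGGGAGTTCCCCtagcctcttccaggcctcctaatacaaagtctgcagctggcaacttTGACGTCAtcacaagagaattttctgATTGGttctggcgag
H2-Eb1: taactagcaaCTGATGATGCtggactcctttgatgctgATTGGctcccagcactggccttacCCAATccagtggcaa
H2-DMb1: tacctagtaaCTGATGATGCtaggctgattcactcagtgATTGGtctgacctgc
H2-K1: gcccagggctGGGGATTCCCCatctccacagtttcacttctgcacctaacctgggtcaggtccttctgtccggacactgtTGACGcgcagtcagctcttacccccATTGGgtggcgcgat
H2-D1: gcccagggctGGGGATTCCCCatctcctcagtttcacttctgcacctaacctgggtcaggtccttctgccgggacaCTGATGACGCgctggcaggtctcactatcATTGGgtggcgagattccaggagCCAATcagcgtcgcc
B2m: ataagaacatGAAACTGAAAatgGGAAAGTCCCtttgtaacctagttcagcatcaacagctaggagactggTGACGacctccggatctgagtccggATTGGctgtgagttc

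The motifs were searched on both strands in the 250 bases before each start. CCAAT, the letters of the Y box, was found in 8 of 8 class II genes, 19 of 22 class I genes and 3 of 6 processing genes with an entry, against 33.9% of all 32851 promoters. The longer run CTGATGA, any base, GC, chosen after the H2-Eb1 and H2-DMb1 promoters had been read, was found in 2 class II and 2 class I genes, against 0.253% of all promoters. TGACG, the core letters of the X2 box, which lie inside that run in H2-D1, was found in 1 class II gene and 11 class I genes, against 17.8%. The NF-kB consensus was found in 8 class I genes and 1 class II gene, against 3.90%, and in H2-Aa, H2-K1 and H2-D1 each of its matches overlaps another match on the opposite strand. The interferon element was searched only as GAAA, any 2 bases, GAAA. In this form it was found in 3 class I genes and in no class II gene, against 2.98%. Other forms were not searched, so a promoter without a match may still hold such an element. A match describes the letters only. No promoter entry was used for H2-Ab1, Nlrc5 or Ciita.

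None of the 37 genes that passed the filter on low counts was past the threshold between the groups (edgeR quasi-likelihood test, Benjamini-Hochberg adjusted p under 0.05). Of all 14809 genes tested, 5.02% were called, 2.84% higher and 2.18% lower after doxycycline. An unadjusted p under 0.05 was reached by 6 of the 37, all with higher values after doxycycline (H2-Ab1, H2-Eb1, H2-DMb1, Cd74, Ciita and Cd1d1), against 23.9% of all tested genes (13.1% with higher values, 10.8% with lower ones). DESeq2 called 4 of the genes higher, namely Cd1d1, H2-Ab1, H2-Eb1 and Cd74, against 5.74% of the genes it adjusted higher and 5.17% lower, and limma-voom called none. With GC and length offsets Cd74 and H2-Ab1 were called higher, against 2.06% of all genes higher and 1.26% lower. Without doxycycline replicate 2, Cd1d1 and H2-Ab1 were called higher, against 8.18% higher and 5.69% lower. With upper quartile scaling Cd1d1 alone was called, against 3.61% higher and 1.87% lower. The 13 genes below the filter had at most 11 counts in any library. Among these, H2-T9 and H2-M10.5 had no count at all.

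Class II genes had higher values after doxycycline without passing the threshold. All 7 that passed the filter had positive log2 fold changes, with a median of 0.59 against 0.01 for all genes tested, and 51.1% of those were positive. Class I genes were spread around no difference: of 17 that passed the filter, 9 were positive and 8 negative, with a median of 0.00. The groups did not overlap for 4 of the 7 class II genes, each with doxycycline above, where 15.2% of all tested genes lay above. Of the 17 class I genes 1 lay above (H2-Q2) and 1 below (H2-K1), where 14.4% of all tested genes lay below and 29.6% lay on either side.

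**Figure D1:**
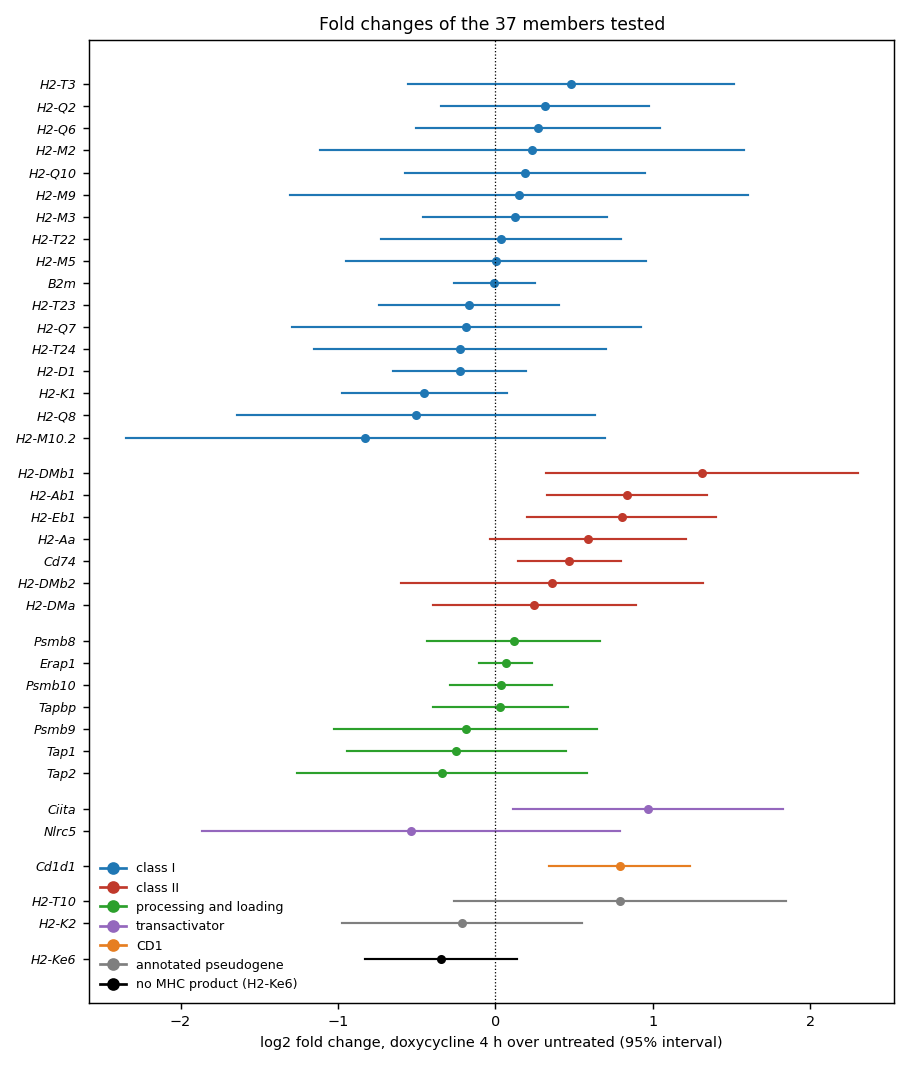
Log2 fold change (doxycycline 4 h over untreated) of each of the 37 genes that passed the filter on low counts, by role; points are edgeR estimates from 3 libraries per group and bars are 95% intervals. The 7 class II genes lie at 0.25 to 1.31, and the 17 class I genes at -0.83 to 0.48.

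The antigen-presenting class II chains all had positive fold changes. H2-Ab1, the beta chain of I-A, had 22.5, 23.1 and 19.9 CPM in doxycycline replicates 1, 2 and 3, against 15.4, 9.30 and 12.1 CPM in untreated replicates 1, 2 and 3. All doxycycline libraries were above all untreated ones, a log2 fold change of 0.83 (SE 0.22, 95% interval 0.33 to 1.34, edgeR adjusted p = 0.0691). H2-Eb1, the beta chain of I-E, had 16.2, 21.2 and 18.7 CPM after doxycycline, against 14.7, 8.04 and 9.44 CPM untreated. The groups did not overlap, but doxycycline replicate 1 and untreated replicate 1 lay close together (0.80, SE 0.26, edgeR adjusted p = 0.116). H2-Aa, the alpha chain of I-A, had 20.1, 27.0 and 23.4 CPM after doxycycline, against 22.1, 10.6 and 14.3 CPM untreated. Here untreated replicate 1 lay above doxycycline replicate 1, so the groups overlapped (0.59, SE 0.27, edgeR adjusted p = 0.238).

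The invariant chain and 1 chain of the exchange factor also had higher values in all doxycycline libraries. Cd74, the invariant chain, was the most abundant class II gene and had 51.7, 56.4 and 51.8 CPM after doxycycline, against 45.7, 32.3 and 37.5 CPM untreated. The groups did not overlap (0.47 on the log2 scale, SE 0.14, edgeR adjusted p = 0.0957). H2-DMb1, a beta chain of the exchange factor, had 3.85, 3.16 and 2.76 CPM after doxycycline, against 2.12, 0.754 and 1.08 CPM untreated. This was the widest fold change of the class, again without overlap, from 44 to 46 counts per doxycycline library against 12 to 28 per untreated library (1.31, SE 0.43, edgeR adjusted p = 0.117). Its near copy H2-DMb2, which may share reads with it, had 1.68, 1.51 and 2.07 CPM after doxycycline, against 1.81, 0.754 and 1.55 CPM untreated (0.36, edgeR adjusted p = 0.655). H2-DMa, the alpha chain, had 9.05, 6.86 and 10.7 CPM after doxycycline, against 9.37, 7.03 and 6.001 CPM untreated (0.25, edgeR adjusted p = 0.647). For both the groups overlapped. Exons of H2-DMa overlap those of Brd2 on the opposite strand by 360 bases in GENCODE M21, and strand use in the counting is not stated. H2-Oa, H2-Ob and H2-Eb2, the other class II genes, had at most 8 counts in any library.

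**Figure D2:**
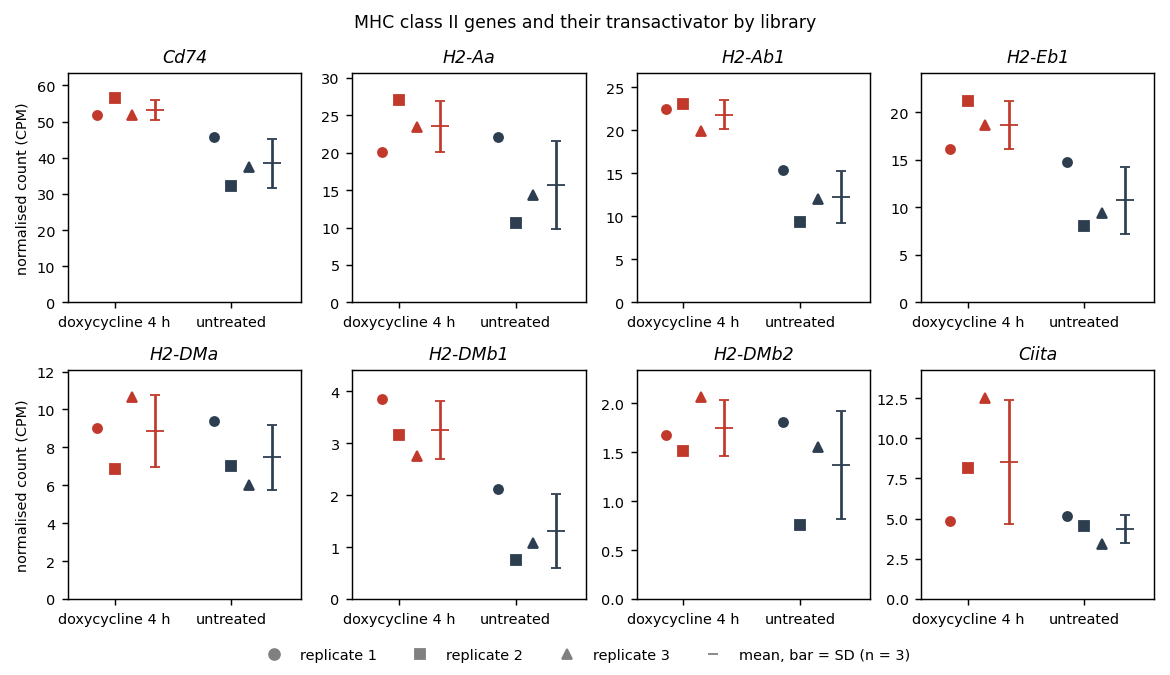
Normalised counts (CPM) of the 7 class II genes that passed the filter and of Ciita in each library, doxycycline left of untreated; marker shapes give the replicate number and bars the mean ± SD (n = 3). For Cd74, H2-Ab1, H2-Eb1 and H2-DMb1 the doxycycline libraries lie above all untreated ones, and untreated replicate 2 is the lowest library in 6 of the 7 class II genes.

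The size of the class II difference depended on which untreated library was in the group. Untreated replicate 2 was the lowest of the 6 libraries for 6 of the 7 class II genes, against 10.6% of all tested genes. Without it the class II median was 0.35, and without untreated replicate 1 it was 0.91. The summed class II level was 126, 140 and 130 CPM in doxycycline replicates 1, 2 and 3, against 112, 69.2 and 82.5 CPM in untreated replicates 1, 2 and 3. The sums did not overlap, and their means were 132 ± 7.25 CPM after doxycycline and 87.9 ± 22.0 CPM untreated (SD, n = 3 each).

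Ciita, the class II transactivator, had 4.86, 8.17 and 12.5 CPM after doxycycline, against 5.14, 4.52 and 3.44 CPM untreated. Doxycycline replicates 2 and 3 were above all untreated libraries, and replicate 1 lay among them (log2 fold change 0.97, SE 0.38, 95% interval 0.11 to 1.83, edgeR adjusted p = 0.164). Without doxycycline replicate 3 it was 0.58. Its exons overlap those of Dexi on the opposite strand by 329 bases. Cd1d1, a class I-like molecule encoded outside the complex that presents lipids to natural killer T cells, came closest to the threshold of the 37 genes. It had 17.5, 24.02 and 19.1 CPM after doxycycline, against 11.2, 12.3 and 11.6 CPM untreated. The groups were well apart (0.79, SE 0.20, 95% interval 0.34 to 1.23, edgeR adjusted p = 0.0561), and adjusted p ran from 0.00508 with DESeq2 to 0.242 over the alternatives.

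The classical class I heavy chains were lower in 1 doxycycline library. H2-K1 had 54.6, 27.9 and 54.0 CPM in doxycycline replicates 1, 2 and 3, against 58.5, 62.9 and 65.2 CPM in untreated replicates 1, 2 and 3. All doxycycline libraries were below all untreated ones, by little in replicates 1 and 3 (log2 fold change -0.45, SE 0.23, 95% interval -0.98 to 0.07, edgeR adjusted p = 0.279). Without doxycycline replicate 2 the value was -0.20. H2-D1 had 58.7, 38.4 and 67.1 CPM after doxycycline, against 65.4, 64.6 and 62.3 CPM untreated. Doxycycline replicate 3 was the highest library and replicate 2 the lowest (-0.23, SE 0.18, edgeR adjusted p = 0.501), and without replicate 2 the value was -0.03. These genes and the H2-Q genes are close paralogs and vary between strains, the strain of the hepatoblasts is not given, and the treatment of multiply mapped reads is not stated, so counts of single genes are uncertain.

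B2m, the shared light chain, did not separate the groups. It had 86.0, 69.5 and 67.4 CPM after doxycycline, against 78.0, 73.3 and 72.4 CPM untreated (log2 fold change -0.01, SE 0.11, 95% interval -0.27 to 0.25, edgeR adjusted p = 0.982). The sign was positive with upper quartile scaling. Its counts per exonic base (1.27 in the untreated mean) were exceeded by 6 genes of at least 1000 exonic bases. B2m itself has 860 exonic bases and lies outside that set. In the only pair of libraries compared, counts levelled off in that range. Untreated replicate 2 held 1.23 times the counts of untreated replicate 1. The median ratio was 1.08 for genes of that set above 1 count per base, and B2m stood at 1.13. Whether this compresses a fold change of B2m was not tested.

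Nonclassical class I genes were lower in level and as mixed in direction. H2-M3, which presents formylated peptides, had 13.7, 12.5 and 22.0 CPM after doxycycline, against 14.0, 16.8 and 13.4 CPM untreated (log2 fold change 0.12, edgeR adjusted p = 0.817). H2-T23 (Qa-1), a ligand of natural killer cell receptors, had 9.55, 6.18 and 9.15 CPM after doxycycline, against 9.14, 9.04 and 9.71 CPM untreated (-0.17, edgeR adjusted p = 0.738). H2-T24 had 20.7, 5.70 and 14.5 CPM after doxycycline, against 14.4, 19.2 and 14.1 CPM untreated (-0.22, edgeR adjusted p = 0.788). For H2-T23 and H2-T24 doxycycline replicate 2 was far below the other 5 libraries, which lay closer to each other. H2-Q7, which encodes a Qa-2 antigen, had 4.02, 1.17 and 3.07 CPM after doxycycline, against 3.10, 4.21 and 2.02 CPM untreated (-0.18, edgeR adjusted p = 0.859). H2-Q8, its close relative, had 4.27, 0.892 and 2.69 CPM after doxycycline, against 3.40, 3.96 and 3.71 CPM untreated (-0.50, edgeR adjusted p = 0.586). Both had their lowest value in doxycycline replicate 2.

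The weakly expressed class I genes gave wide intervals. H2-Q2 had 3.18, 2.81 and 3.26 CPM after doxycycline, against 2.57, 2.45 and 2.43 CPM untreated (log2 fold change 0.31, edgeR adjusted p = 0.56), the only class I gene with all doxycycline libraries above. H2-M10.2 had 2, 9 and 29 counts after doxycycline, against 15, 32 and 24 counts untreated, and its value of -0.83 (SE 0.67, edgeR adjusted p = 0.497) rests on those few reads. H2-Q6 had 3.94, 2.13 and 2.88 CPM after doxycycline, against 2.57, 2.26 and 2.56 CPM untreated. The related H2-Q10 had 3.02, 2.26 and 2.94 CPM after doxycycline, against 2.04, 2.07 and 3.10 CPM untreated. For both, doxycycline replicate 2 lay within or below the untreated range. H2-T22, a ligand of gamma-delta T cell receptors, had 2.43, 1.58 and 2.07 CPM after doxycycline, against 1.81, 2.07 and 2.02 CPM untreated. H2-M5 had 1.42, 0.892 and 2.26 CPM after doxycycline, against 1.66, 1.51 and 1.42 CPM untreated. H2-T3, the thymus leukaemia antigen, had 1.17, 1.098 and 1.57 CPM after doxycycline, against 0.453, 1.13 and 1.15 CPM untreated. The groups overlapped for each of these 5 genes, whose log2 fold changes were 0.00 to 0.48 (edgeR adjusted p of 0.569 to 0.997). The value of H2-M5 turned negative with RLE size factors, DESeq2, limma-voom, no filter on low counts or a replicate block. Exons of H2-T22 overlap those of A930015D03Rik by 1003 bases. The pseudogene H2-K2 had 6.45, 3.23 and 5.08 CPM after doxycycline, against 5.89, 4.52 and 6.68 CPM untreated (-0.21, edgeR adjusted p = 0.749). H2-Ke6, the enzyme gene, had 11.9, 9.33 and 10.8 CPM after doxycycline, against 15.5, 12.1 and 13.1 CPM untreated (-0.35, edgeR adjusted p = 0.364).

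Doxycycline replicate 2 was the lowest of the 6 libraries for 12 of the 17 class I genes, against 24.5% of all tested genes. The same library was the highest for 4 of the 7 class II genes, against 23.4% of all tested genes. The summed class I level was 271, 175 and 259 CPM in doxycycline replicates 1, 2 and 3, against 260, 269 and 260 CPM in untreated replicates 1, 2 and 3. Doxycycline replicates 1 and 3 thus lay close to the untreated libraries, and replicate 2 below them. Replicate 2 also had the highest summed level of skeletal muscle markers (683 CPM, against 437 and 104 CPM in doxycycline replicates 1 and 3). The part of muscle RNA in these values was not tested. The ratio of the summed class II to the summed class I level was 0.464, 0.8001 and 0.502 after doxycycline, against 0.431, 0.257 and 0.318 untreated. All doxycycline libraries had a higher ratio than all untreated ones, replicate 1 by the least. The ratio of the group means was 1.76, and 1.44 without doxycycline replicate 2. No test was made on these ratios, since the genes were chosen with results of these libraries known.

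Peptide processing and loading genes differed little between the groups. Erap1, which trims peptides in the endoplasmic reticulum, had 119, 126 and 128 CPM after doxycycline, against 120, 122 and 115 CPM untreated (log2 fold change 0.07, SE 0.07, 95% interval -0.10 to 0.23, edgeR adjusted p = 0.643). Its sign was negative with GC and length offsets, and its exons overlap those of Cast on the opposite strand by 834 bases. Psmb10, an immunoproteasome subunit, had 30.7, 41.2 and 38.7 CPM after doxycycline, against 35.7, 37.7 and 34.7 CPM untreated (0.03, edgeR adjusted p = 0.91). Psmb8, another catalytic subunit of the immunoproteasome, had 8.54, 9.20 and 11.0 CPM after doxycycline, against 10.6, 8.42 and 7.55 CPM untreated (0.12, edgeR adjusted p = 0.82). The groups overlapped for both subunits. Psmb9, the third such subunit, had 2.26, 2.95 and 5.01 CPM after doxycycline, against 4.53, 3.83 and 3.37 CPM untreated (-0.19, edgeR adjusted p = 0.802), and its exons overlap those of Tap1 by 212 bases. Tapbp, which encodes tapasin, had 66.3, 42.6 and 72.6 CPM after doxycycline, against 63.8, 60.2 and 53.8 CPM untreated (0.03, edgeR adjusted p = 0.943). Its doxycycline libraries held both the highest and the lowest value.

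Both transporter subunits and Nlrc5, the class I transactivator, varied more within the doxycycline group than between the groups. Within the untreated group this held for Tap1 and Nlrc5 but not for Tap2 (SD 0.933 CPM untreated and 3.17 CPM after doxycycline). Nlrc5 had 19.9, 4.32 and 11.8 CPM in doxycycline replicates 1, 2 and 3, against 9.29, 30.8 and 11.9 CPM in untreated replicates 1, 2 and 3. Its lowest library was doxycycline replicate 2 and its highest untreated replicate 2 (log2 fold change -0.54, SE 0.58, 95% interval -1.86 to 0.79, edgeR adjusted p = 0.628), and without untreated replicate 2 the sign turned to 0.16. Tap1 had 16.4, 8.30 and 14.8 CPM after doxycycline, against 12.2, 20.2 and 14.4 CPM untreated (-0.25, edgeR adjusted p = 0.675). Tap2 had 8.12, 2.75 and 8.33 CPM after doxycycline, against 7.86, 9.11 and 7.28 CPM untreated (-0.34, edgeR adjusted p = 0.665). All 3 genes had their lowest value in doxycycline replicate 2 and their highest in untreated replicate 2.

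**Figure D3:**
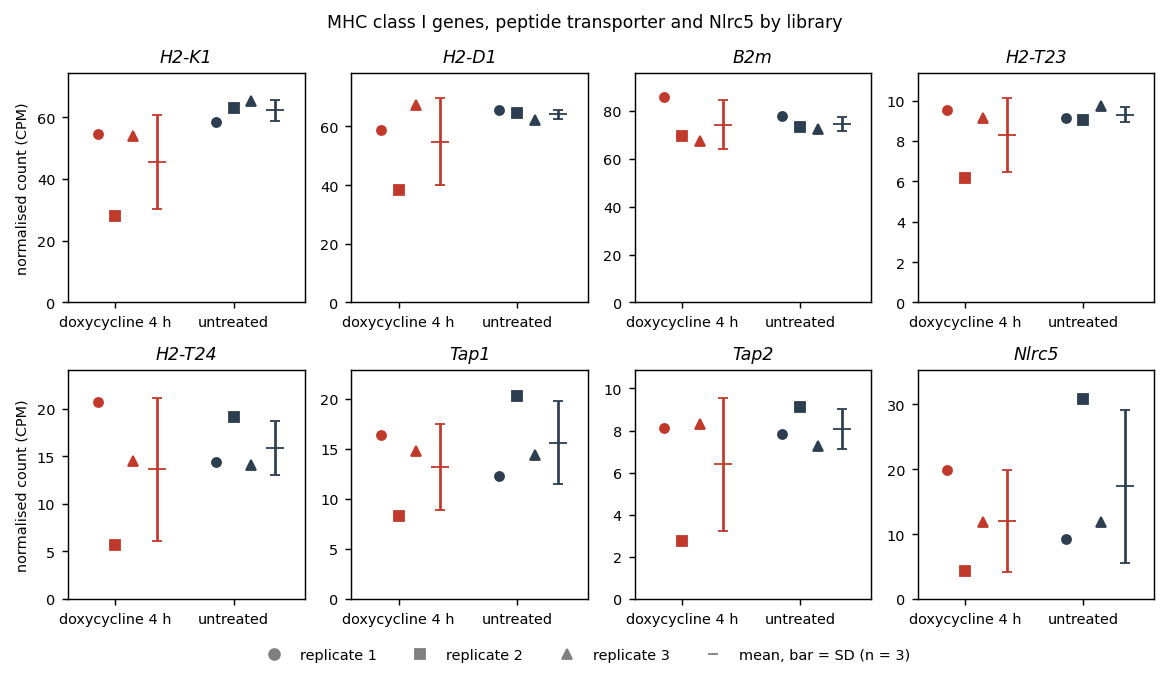
Normalised counts (CPM) of 5 class I genes, both transporter subunits and Nlrc5 in each library, doxycycline left of untreated; marker shapes give the replicate number and bars the mean ± SD (n = 3). Doxycycline replicate 2 is the lowest library in each panel but that of B2m, and Nlrc5, Tap1 and Tap2 are highest in untreated replicate 2.

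Across the 6 libraries the log2 level of Tap1 went with that of Nlrc5 (Pearson r = 0.983, exact permutation p = 0.00278; Spearman rho = 0.943, exact permutation p = 0.0167). Without the libraries farthest from the Nlrc5 median, doxycycline replicate 2 and untreated replicate 2, r was 0.923. The same held for H2-T24 (r = 0.907, exact permutation p = 0.0139; rho = 0.771, exact permutation p = 0.103; r = 0.923 without those libraries). For Tap2 (r = 0.826, exact permutation p = 0.0167; rho = 0.714, exact permutation p = 0.136) r was 0.279 without those libraries, so the relation rests on them. For the classical heavy chains the sign of r with Nlrc5 turned without those libraries. For H2-D1 r was 0.688 over 6 libraries (exact permutation p = 0.197, with rho = 0.0857, exact permutation p = 0.919) and -0.834 without them. For H2-K1 r was 0.759 over 6 libraries (exact permutation p = 0.0986, with rho = 0.60, exact permutation p = 0.242) and -0.384 without them. For H2-Q8 r was 0.839 (exact permutation p = 0.0222, with rho = 0.886, exact permutation p = 0.0333) and 0.619 without them. For H2-Q7 it was 0.885 (exact permutation p = 0.0222, with rho = 0.771, exact permutation p = 0.103) and 0.545 without them. For H2-T22 it was 0.813 (exact permutation p = 0.0611, with rho = 0.886, exact permutation p = 0.0333) and 0.990 without them. Among tested class II genes r with Nlrc5 ran from -0.784 for H2-Aa to 0.067 for H2-DMa. Each r without those libraries rests on few points and was not tested. With Ciita, the smallest Pearson p was that of Erap1 (r = 0.946, exact permutation p = 0.00694, with rho = 0.829, exact permutation p = 0.0583). Its r was 0.781 without doxycycline replicates 2 and 3. The smallest Spearman p with Ciita was that of Psmb8 (rho = 0.943, exact permutation p = 0.0167, with r = 0.766, exact permutation p = 0.0792). All 7 tested class II genes had a positive r with Ciita, from 0.458 for H2-DMb2 to 0.750 for H2-Eb1 (exact permutation p of 0.0903 to 0.35). Ciita and these genes all had positive fold changes, so each r over the 6 libraries includes the difference between the groups. The permutations did not keep the groups apart. These relations were looked for after the values had been seen, as part of 65 between a transactivator and another of the 34 genes named here. None was below 0.05 after Benjamini-Hochberg adjustment over the 65 (smallest adjusted permutation p = 0.181 for Pearson and 0.310 for Spearman, both exact and two-sided). Groups of 3 are too small for a value within each group. The summed interferon-gamma induced list, like Nlrc5, was highest in untreated replicate 2. Its level was 163, 165 and 165 CPM in doxycycline replicates 1, 2 and 3, against 188, 264 and 169 CPM in untreated replicates 1, 2 and 3. The sum in doxycycline replicate 2 includes 46.7 CPM of Iigp1, against 23.4 and 15.4 CPM in doxycycline replicates 1 and 3. Of the tested genes, Gbp2, Gbp5, Cxcl9, Cxcl10 and Cd274 were lowest in doxycycline replicate 2. Gbp3, Gbp6, Gbp7, Irgm1, Irgm2, Igtp and Iigp1 were not. The part of an interferon response in these values was not tested.

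Levels between genes were compared per kilobase of exon (GENCODE M21), as the mean of both groups. B2m was highest at 86.5 CPM per kilobase, above Cd74 at 27.3, H2-D1 at 23.04, Psmb10 at 21.4, H2-K1 at 18.3, Erap1 at 16.7 and Tapbp at 16.5. H2-M3 followed at 10.7, and H2-Eb1, H2-T24, H2-Ab1, Cd1d1 and H2-Aa lay between 5.15 and 7.57. H2-D1 stood at 21.2 CPM per kilobase after doxycycline and 24.9 untreated. H2-K1 stood at 15.5 CPM per kilobase after doxycycline and 21.2 untreated, while Cd74 stood at 31.7 after doxycycline and 22.9 untreated. In these group means per kilobase, Cd74 was above H2-D1 after doxycycline and below it in untreated tumours. Without division by length H2-D1 was above Cd74 in both group means (54.8 against 53.3 CPM after doxycycline, 64.1 against 38.5 CPM untreated). The order of neighbours such as H2-D1 and Psmb10, and that of Cd74 and H2-D1 in untreated tumours, is within the spread between libraries.

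Other genes of the pathway were taken from fixed lists. Of all 14809 genes tested, 2.84% were called higher and 2.18% lower. A single call in a list this short is therefore no result about the list. Of 10 class II processing genes, 1 was higher and none lower: March1, a ubiquitin ligase that takes class II molecules from the cell surface. It had 15.9, 11.2 and 19.0 CPM after doxycycline, against 7.63, 5.65 and 5.60 CPM untreated (log2 fold change 1.29, SE 0.27, edgeR adjusted p = 0.0371). Ctss, the lysosomal protease that cuts the invariant chain, averaged 46.2 ± 3.32 CPM after doxycycline and 30.0 ± 5.56 CPM untreated (0.63, edgeR adjusted p = 0.0598; SD, n = 3 each), and Sppl2a was at 0.28 (edgeR adjusted p = 0.0867). The list median was 0.07. Of 8 tested genes in a list of natural killer ligands and class I-like molecules, 1 was higher: Mr1, which presents vitamin B metabolites, with 35.6, 29.6 and 27.1 CPM after doxycycline, against 18.9, 17.7 and 19.4 CPM untreated. Its groups were well apart (0.72, SE 0.16, edgeR adjusted p = 0.0426), and the list median was 0.21. Hfe, which controls iron uptake, was at 0.64 (edgeR adjusted p = 0.128) and Fcgrt, the neonatal Fc receptor, at 0.21 (edgeR adjusted p = 0.398). Neither call held in every alternative. Without untreated replicate 1, 2 or 3, the edgeR adjusted p was 0.126, 0.135 or 0.193 for March1 and 0.166, 0.153 or 0.189 for Mr1; without doxycycline replicate 1 or 3 it was 0.0743 or 0.101 for March1 and 0.0796 or 0.0674 for Mr1. With the GC and length offsets it was 0.0619 for March1 and 0.0646 for Mr1, and limma-voom gave 0.0537 for Mr1.

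Among upstream factors only Relb passed the threshold, where 2.18% of all tested genes were called lower. Single calls in these lists are no result about the lists. Of 22 tested regulators of MHC genes, 1 was lower: Relb, a subunit of NF-kB, with 35.2, 29.9 and 38.6 CPM after doxycycline, against 60.2, 52.8 and 65.7 CPM untreated (log2 fold change -0.78, SE 0.14, edgeR adjusted p = 0.0230). Rfx5, which binds the X box, averaged 82.7 ± 8.63 CPM after doxycycline and 60.9 ± 3.09 CPM untreated (0.44, edgeR adjusted p = 0.0529; SD, n = 3 each). Irf8, an interferon regulatory factor of myeloid cells, was at -0.34 (edgeR adjusted p = 0.0684). Without untreated replicate 1, 2 or 3, the edgeR adjusted p of Relb was 0.122, 0.0659 or 0.136. Of 12 tested interferon-gamma induced genes, 1 was lower, the chemokine Cxcl10, with 5.28, 3.02 and 4.01 CPM after doxycycline, against 13.7, 19.97 and 9.37 CPM untreated (-1.81, edgeR adjusted p = 0.0288). Without untreated replicate 1, 2 or 3, its edgeR adjusted p was 0.126, 0.105 or 0.0845, and without doxycycline replicate 3 it was 0.0853. Gbp2 (-0.63, edgeR adjusted p = 0.10) and Cd274, which encodes PD-L1 (-0.74, edgeR adjusted p = 0.217), did not pass. The list median was -0.33. No gene passed among 14 further class I loading genes (median -0.08), where Psme3 at -0.24 (edgeR adjusted p = 0.111) and Erp29 at -0.18 (edgeR adjusted p = 0.289) came closest. None passed among 3 constitutive proteasome subunits either (median -0.03), with Psmb5 at -0.17 (edgeR adjusted p = 0.497) and Psmb7 at -0.03 (edgeR adjusted p = 0.836).

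Markers of the cell types that carry class II molecules differed in how they compared between the groups. Of all tested genes 2.84% were called higher and 2.18% lower. Of 16 macrophage markers 3 were higher and none lower (median 0.33). Their summed levels were 813, 639 and 940 CPM in doxycycline replicates 1, 2 and 3. In untreated replicates 1, 2 and 3 they were 636, 543 and 606 CPM. Doxycycline replicate 2, the highest library in summed class II level, thus had the lowest macrophage sum of its group. Of 9 tested dendritic cell markers none passed (median 0.04), and their summed levels of 85.6 to 98.8 CPM after doxycycline overlapped the 87.3 to 98.1 CPM of untreated tumours. Of 8 B cell markers 4 passed the filter and none the threshold, with sums of 8.96 to 14.0 CPM after doxycycline, against 11.2 to 11.3 CPM untreated. Of 12 T and natural killer cell markers 5 passed the filter and none the threshold, with sums of 11.1 to 16.9 CPM after doxycycline, against 10.5 to 13.4 CPM untreated. No marker in these 4 lists was without counts. Fibroblast markers were higher for 3 of 10 (1636 to 1873 CPM after doxycycline, against 1237 to 1274 CPM untreated), and endothelial markers for 2 of 10 (377 to 444 CPM after doxycycline, against 282 to 322 CPM untreated). Of 8 tested neutrophil markers 1 was lower (84.6 to 128 CPM after doxycycline, against 151 to 209 CPM untreated). The part of these cells in the class II values was not tested.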

How the data were processed

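The authors deposited 1 table of read counts per gene for 6 libraries. The submitters' processing notes name TopHat2 2.0.8, TopHat and HTSeq and build mm9, without role or order; strand use and duplicate removal are not stated. The counts were used as deposited. Of 21761 rows, 90 carry no gene name (0.0361% to 0.0402% of counts) and were left out. In R 4.3.3, edgeR 4.0.16 was run on the whole table with filterByExpr and TMM factors of 0.985 to 1.02. The test was the robust quasi-likelihood test, two-sided, with Benjamini-Hochberg adjustment over 14809 genes and a threshold of 0.05. On simulated data it recovered 90.0% of 200 log2 fold changes of 1, set in genes above 1 CPM among 21671 for this comparison. The simulated counts had the same fixed dispersion for every gene and library, without an outlying library. The share recovered is therefore no measure of power for the genes described here. DESeq2 1.42.0 and limma 3.58.1 were alternatives. CPM uses TMM-adjusted totals. Log2 fold changes are doxycycline over untreated; the SE is its size over the square root of F. Genes with at least 1 CPM in the higher group mean are named with all values; from each pathway list, those past the threshold and up to 2 more with the smallest p are named. H2-T10, H2-M2 and H2-M9, tested but below that level, are counted only. Exonic length, overlaps and GC content come from GENCODE M21 and promoters from RefSeq, both on GRCm38, another build than mm9. The genes and lists were chosen with earlier results of these data known. Correlations used log2(CPM + 0.5).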

Additional observations from a re-analysis of the deposited data

How the results depend on the processing

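No class I or processing gene was called in either direction, and no class II gene was called lower, in any of the 14 alternatives. Members called higher numbered 1 with upper quartile scaling (Cd1d1), 4 with DESeq2, 2 with GC and length offsets (Cd74 and H2-Ab1), and 0 to 2 with a library left out, the 2 being Cd1d1 and H2-Ab1 without doxycycline replicate 2. Class II genes called higher numbered 3 with DESeq2, 2 with GC and length offsets and 0 to 1 with a library left out. The class II median stayed between 0.35 and 0.91 and the class I median between -0.28 and 0.18 with a library left out, and the ratio of class II to class I between 1.44 and 2.05. Of all genes, DESeq2 called 877 higher and 790 lower, limma-voom 251 higher, and GC and length offsets left 187 lower. With a library left out, 11 to 1244 were higher and 12 to 866 lower, the lowest without an untreated replicate (11 and 12 without replicate 1, 27 and 25 without replicate 2, 14 and 13 without replicate 3) and the highest without doxycycline replicate 2; 180 were higher without doxycycline replicate 1, and 159 higher and 130 lower without doxycycline replicate 3. Same-numbered libraries did not deviate together (correlations -0.01, -0.076 and 0.015), so no pairing by number was seen. With 3 libraries per group a weak pairing could be missed. With the replicate block 215 genes were higher and 179 lower, with the block and the offsets 151 and 82, and no member was called in either fit. With the block the adjusted p was 0.0628 for March1, 0.0982 for Mr1 and 0.0538 for Cxcl10; with block and offsets it was 0.0936, 0.127 and 0.0741, and 0.0515 for Relb. Signs turned for 14 members and 1 other named gene, and no fit called any of these values. H2-M5 was at -0.0028 with RLE size factors, -0.014 with DESeq2, -0.082 with limma-voom, -0.010 with no filter on low counts, -0.075 with the replicate block and -0.056 with block and offsets. Erap1 was at -0.058 with the offsets and -0.059 with block and offsets, Tapbp at -0.0019 with limma-voom and -0.0011 with the replicate block, B2m at 0.027 and Psmb7 at 2.8e-05 with upper quartile scaling. With a library left out, signs turned within -0.13 to 0.060 for B2m, -0.65 to 0.14 for H2-T24, -0.17 to 0.27 for H2-M3, -0.28 to 0.0039 for H2-T23, -0.55 to 0.18 for H2-Q7, -0.11 to 0.18 for H2-T22, -0.41 to 0.28 for H2-M5, -0.12 to 0.23 for Tapbp, -0.056 to 0.15 for Psmb10, -0.58 to 0.022 for Tap2, -0.58 to 0.026 for Psmb9, -1.10 to 0.16 for Nlrc5 and -0.46 to 0.011 for H2-K2. Of 476 values of the 34 named members under the alternatives, 434 kept their sign and side of the threshold, 9 passed it and 33 turned sign; the cause was not tested. Members below 5 CPM had SEs of 0.29 to 0.67.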
